A study of Mus musculus with 8 samples.

Results

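Mif, Pigyl, Fbll1, Znrd2, Prr7 and C1qtnf4 are 6 of the 19558 genes in the deposited table, and all 6 were among the 15481 genes with enough counts to be tested. They were selected on the measured difference between KU55933 and vehicle: each was called lower in KU55933 and was still called lower after a correction for the GC content and length of transcripts. Their differences between the groups are therefore given below as a description, and adjusted p-values are printed for them only where a setting ends the call that selected them. The RNA was polyadenylated RNA of the hippocampus of wild-type mice, strain label C57BL/6 KP, at postnatal day 40. Of 8 libraries, 4 came from mice dosed through the nose, under anesthesia, with KU55933 at a stated 7.5 mg/kg, and 4 from mice given the vehicle, 4% DMSO in saline. KU55933 is an inhibitor of ATM, a kinase that responds to breaks in DNA, and no group carried an altered gene. How long after dosing the tissue was taken is not stated in the labels. Every sample is labelled hippocampus, but the extraction text of the labels names RNA inputs for hypothalamus and prefrontal cortex, and this was not resolved.

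The 6 genes belong to unrelated families. Mif encodes a small, abundant cytokine and tautomerase that signals through CD74 at the cell surface. Pigyl encodes the PIG-Y subunit of the enzyme complex that starts the synthesis of glycosylphosphatidylinositol (GPI) anchors, the lipids that tether many proteins to the cell membrane. Fbll1 encodes a relative of fibrillarin, the enzyme that methylates ribosomal RNA in the nucleolus, guided by box C/D small nucleolar RNAs. Znrd2 encodes a small zinc ribbon protein, first described as an autoantigen in connective tissue disease, that binds tankyrases. Prr7 encodes a proline-rich membrane protein of the postsynaptic density that binds the scaffold PSD-95 and the NMDA receptor. C1qtnf4 encodes a secreted protein with C1q-like domains, one of the C1q and TNF related family.

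What the members share in sequence is a high GC content, which the correction in their selection had used. The most GC-rich 60 bases of the coding sequence are shown for 5 members to illustrate this feature, and such a window is GC-rich by how it was picked. They are printed 5′ to 3′ from the GENCODE mouse release M21 transcript with the most counts for each gene, and capitals mark CpG dinucleotides.
Mif: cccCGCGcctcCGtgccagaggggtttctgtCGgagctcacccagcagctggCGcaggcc
Pigyl: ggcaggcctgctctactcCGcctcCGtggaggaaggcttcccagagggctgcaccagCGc
Znrd2: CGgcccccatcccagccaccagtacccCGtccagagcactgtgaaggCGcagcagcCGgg
Prr7: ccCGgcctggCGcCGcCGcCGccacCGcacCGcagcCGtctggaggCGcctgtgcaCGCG
C1qtnf4: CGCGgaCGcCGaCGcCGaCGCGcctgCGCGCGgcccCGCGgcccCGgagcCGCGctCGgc
The window lay at coding bases 31 to 90 in Mif, 51 to 110 in Pigyl, 334 to 393 in Znrd2, 208 to 267 in Prr7 and 468 to 527 in C1qtnf4. C1qtnf4 held 17 CpG dinucleotides in its window and Pigyl held 3. The windows were 73.3% GC in Mif, 70.0% in Pigyl, 71.7% in Znrd2, 83.3% in Prr7 and 90.0% in C1qtnf4. In the related genes described below, the same window was 78.3% GC with 9 CpG in Pyurf, 76.7% with 5 in Fbl and 71.7% with 6 in Ddt. The windows of Mif, Pigyl and Znrd2 thus did not stand apart from those of the related genes. Over whole transcripts the GC content was 59.8% in Mif, 58.3% in Pigyl, 62.6% in Fbll1, 60.5% in Znrd2, 69.02% in Prr7 and 70.7% in C1qtnf4, against a median of 50.3% over the tested genes. Only 6 tested genes had a GC content as high as that of Prr7, and 2 as high as that of C1qtnf4. The transcripts were also short, from 545 bases in Mif to 1503 in Fbll1, against a median of 2664. Within the coding sequence, the third codon position was G or C in 83.5% of Mif codons, 87.3% of Pigyl, 82.2% of Fbll1, 83.3% of Prr7 and 90.2% of C1qtnf4 codons. Znrd2 differed here, at 65.8%.

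Mif (ENSMUSG00000033307) had the highest mean CPM of the members in both groups, although C1qtnf4 stood above it in vehicle libraries 3 and 4. In CPM (counts scaled to a common library size by the TMM method), it stood at 51.2, 54.1, 59.8 and 57.6 in vehicle libraries 1 to 4 and at 20.7, 16.9, 24.5 and 22.2 in KU55933 libraries 1 to 4. Every vehicle library lay above every KU55933 library, and the lowest vehicle value was 2.09 times the highest KU55933 value. The means were 55.7 ± 3.80 and 21.1 ± 3.18 CPM (SD, n = 4 per group), 2.64-fold lower in KU55933.

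Pigyl (ENSMUSG00000010607), of the GPI anchor pathway, showed a similar pattern at a lower level. It measured 12.4, 13.5, 16.1 and 15.5 CPM in the vehicle libraries and 4.39, 3.95, 5.53 and 4.96 CPM in the KU55933 libraries. Again the groups did not overlap, and each was narrow, with a highest to lowest ratio of 1.30 in vehicle and 1.403 in KU55933. The mean was 3.05-fold lower in KU55933 (14.4 ± 1.74 against 4.71 ± 0.691 CPM, SD, n = 4).

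Fbll1 (ENSMUSG00000051062) measured 21.1, 22.5, 29.5 and 26.8 CPM in vehicle and 6.61, 5.55, 8.38 and 8.80 CPM in KU55933. The means of this fibrillarin relative were 25.0 ± 3.90 and 7.34 ± 1.52 CPM (SD, n = 4), 3.40-fold lower in KU55933. Znrd2 (ENSMUSG00000079478) measured 8.40, 8.09, 11.2 and 9.34 CPM in vehicle and 1.87, 1.30, 2.39 and 2.76 CPM in KU55933. Its means were 9.25 ± 1.38 and 2.08 ± 0.639 CPM (SD, n = 4), 4.44-fold lower. In both genes all vehicle libraries stood above all KU55933 libraries, and vehicle libraries 3 and 4 were above vehicle libraries 1 and 2.

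Prr7 (ENSMUSG00000034686) and C1qtnf4 (ENSMUSG00000040794) had the largest differences and the widest spread. Prr7 measured 7.77, 8.28, 28.4 and 33.9 CPM in vehicle and 1.02, 0.986, 1.597 and 0.818 CPM in KU55933. C1qtnf4 measured 20.01, 16.2, 65.7 and 69.5 CPM in vehicle and 2.11, 1.49, 4.50 and 2.99 CPM in KU55933. The vehicle libraries of both genes fell into a low pair, 1 and 2, and a high pair, 3 and 4. The highest vehicle value was 4.36 times the lowest in Prr7 and 4.28 times in C1qtnf4, against 1.17 to 1.401 times in the other members. The low pair still lay above every KU55933 library, by at least 4.86-fold in Prr7 and 3.61-fold in C1qtnf4. The vehicle mean was 19.6 ± 13.5 CPM in Prr7 and 42.9 ± 28.6 CPM in C1qtnf4, and the KU55933 mean was 1.11 ± 0.339 and 2.77 ± 1.30 CPM (SD, n = 4), 17.7-fold and 15.5-fold lower. With vehicle libraries 3 and 4 left out together, the fitted log2 change moved from -4.13 to -2.85 in Prr7 and from -3.94 to -2.71 in C1qtnf4.

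**Figure D1:**
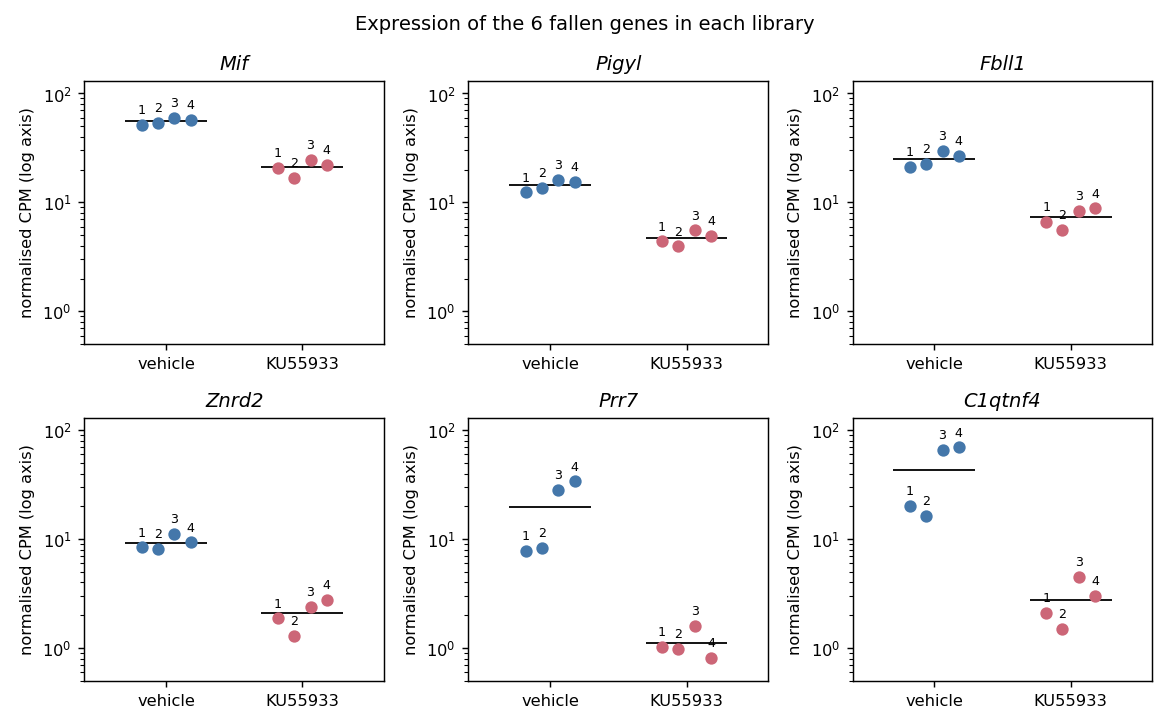
Level of each of the 6 genes in every library, as CPM on a log axis, with 4 vehicle and 4 KU55933 libraries per gene. No group overlaps the other in any of the 6 genes, which were selected on this difference. Every KU55933 library lay below every vehicle library in 15.9% of all tested genes. The vehicle libraries of Prr7 (7.77 to 33.9 CPM) and C1qtnf4 (16.2 to 69.5 CPM) are spread far wider than those of Mif (51.2 to 59.8 CPM).

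The selection can be read against all tested genes. With edgeR's quasi-likelihood test at a Benjamini-Hochberg adjusted p of 0.05, 2267 genes were called lower in KU55933 (14.6%) and 1071 higher (6.92%). With an offset for how the counts of each library depended on GC content and length, 200 genes were called lower (1.29%) and 104 higher (0.672%), and 190 genes were called lower in both fits. All 6 members were called lower in both, as their selection required. Among the 200 genes, ordered by fitted change, Prr7 stood at 8, C1qtnf4 at 12, Znrd2 at 17, Pigyl at 32, Mif at 54 and Fbll1 at 62. At the edge of the threshold, Mrpl52 lay just inside (log2 change -0.74, edgeR adjusted p = 0.0493) and Kif26a just outside (log2 change -0.49, edgeR adjusted p = 0.05003). Every KU55933 library lay below every vehicle library in 15.9% of tested genes, and in 5.06% after the correction, and in all 6 members on both scales.

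The correction removed a different part of the difference in each gene. Without it, the log2 change was -1.40 (SE 0.11) in Mif, -1.61 (SE 0.14) in Pigyl, -1.77 (SE 0.16) in Fbll1, -2.15 (SE 0.21) in Znrd2, -4.13 (SE 0.60) in Prr7 and -3.94 (SE 0.62) in C1qtnf4. With it, the log2 change was -0.76 (SE 0.07) in Mif, -1.10 (SE 0.09) in Pigyl, -0.73 (SE 0.08) in Fbll1, -1.41 (SE 0.14) in Znrd2, -1.96 (SE 0.26) in Prr7 and -1.50 (SE 0.25) in C1qtnf4. These are falls of 1.70-fold in Mif, 2.15-fold in Pigyl, 1.66-fold in Fbll1, 2.65-fold in Znrd2, 3.88-fold in Prr7 and 2.83-fold in C1qtnf4. Thus the 15.5-fold difference of C1qtnf4 and the 17.7-fold difference of Prr7 came down the most. The median over the members was -1.96 without and -1.26 with the offset, and over all tested genes it was 0.01 in each fit.

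On the corrected log2 CPM scale, C1qtnf4 stood at 3.80, 3.71, 4.28 and 4.29 in the vehicle libraries and at 2.08, 2.01, 3.01 and 2.87 in the KU55933 libraries. Prr7 stood at 2.49, 2.73, 3.29 and 3.51 in vehicle and at 0.998, 1.30, 1.44 and 0.86 in KU55933. The split of the vehicle libraries into a low and a high pair thus narrowed in both genes without closing. In Mif the corrected values were 5.50, 5.52, 5.47 and 5.40 in vehicle and 4.77, 4.68, 4.79 and 4.60 in KU55933, with no such split. Pigyl ranged from 3.50 to 3.68 in vehicle and from 2.38 to 2.63 in KU55933, Fbll1 from 4.04 to 4.16 and from 3.24 to 3.52, and Znrd2 from 2.72 to 2.96 and from 1.08 to 1.68. Over the alternative settings tried with the offset, the log2 change stayed between -0.83 and -0.58 in Mif, -1.18 and -1.04 in Pigyl, -0.85 and -0.64 in Fbll1, -1.51 and -1.24 in Znrd2, -2.24 and -1.49 in Prr7, and -1.82 and -1.07 in C1qtnf4.

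The selection itself depended on single libraries in C1qtnf4, whose call with the offset ended without vehicle library 3 (edgeR adjusted p = 0.0799), vehicle library 4 (0.0819), KU55933 library 1 (0.0522) or KU55933 library 2 (0.0804). Leaving out vehicle libraries 3 and 4 together ended the calls of Fbll1 (edgeR adjusted p = 0.0598) and C1qtnf4 (0.266), and leaving out KU55933 libraries 1 and 2 together ended that of Prr7 (0.109). Without the offset, that last setting also ended the calls of Prr7 (edgeR adjusted p = 0.0501) and C1qtnf4 (0.0540).

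**Figure D2:**
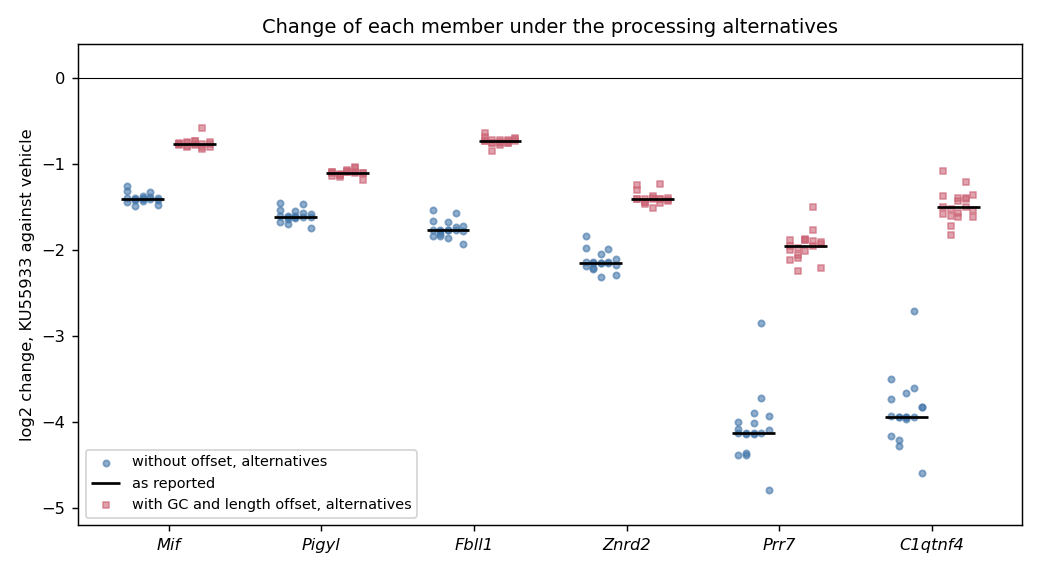
Fitted log2 change of each gene, KU55933 minus vehicle, with and without the GC and length offset, in the settings tried. All values lie below 0, from -4.79 to -1.25 without the offset and from -2.24 to -0.58 with it.

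The libraries themselves differed in how counts varied with GC content. Each gene's log2 CPM was taken relative to its mean over all libraries, so a slope only compares a library with the others. The slope of this relative log2 CPM on GC content, per 10 percentage points, was 0.136, 0.196, 0.273 and 0.260 in vehicle libraries 1 to 4. It was -0.279, -0.348, -0.117 and -0.120 in KU55933 libraries 1 to 4. Vehicle libraries 3 and 4, which were high in Prr7 and C1qtnf4, had the steepest positive slopes, and KU55933 library 2, the lowest in Mif, Pigyl, Fbll1, Znrd2 and C1qtnf4, had the steepest negative one. Of the 1367 tested genes with a GC content at least that of Pigyl, 76.1% were called lower without the offset, with a median log2 change of -0.70. Of the 378 of these that were no longer than Fbll1, 75.4% were called lower without the offset (median -0.79), and with it 33 (8.73%) were called lower and 20 higher (median -0.06). The 10th percentile of these 378 genes, which include the 6 members, was a log2 change of -0.74 with the offset. Fbll1 at -0.73 and Mif at -0.76 stood at that value, and the other members lay beyond it.

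Genes as GC-rich as Prr7 did not all behave alike once the trend was taken out. Besides Prr7 and C1qtnf4, these were Vstm2l, H1f10, Kcnk12 and Foxo6. Without the offset all were lower in KU55933, with log2 changes of -1.13 in Vstm2l, -2.42 in the linker histone gene H1f10, -2.56 in the potassium channel gene Kcnk12 and -1.01 in the transcription factor gene Foxo6. With the offset, Vstm2l stood at 0.84 and Foxo6 at 0.88, H1f10 at -0.06 and Kcnk12 at -0.48. Thus only 6 genes, Prr7 and C1qtnf4 among them, lay in that end of the GC range. The trend there was fitted together with many less GC-rich genes.

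**Figure D3:**
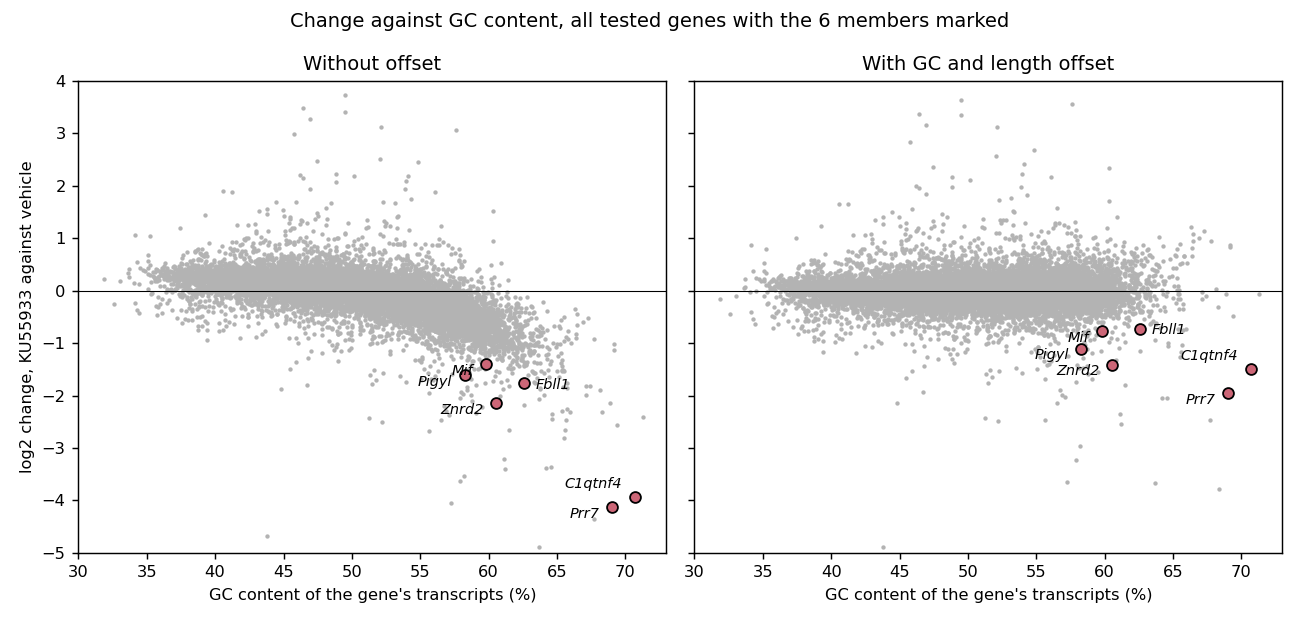
Fitted log2 change, KU55933 minus vehicle, against transcript GC content in percent for the tested genes, without and with the GC and length offset, with the 6 genes marked. Without the offset the GC-rich genes bend downward, to a median of -0.70 from the GC content of Pigyl upward. With it that median is -0.02, and the 6 genes remain below 0.

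Each transcript of the members was looked at in turn, 12 in all. The coding transcript of Mif (ENSMUST00000038169) took 98.2% of the gene's counts in vehicle and 98.0% in KU55933, and its mean fell from 54.6 to 20.6 CPM, 2.65-fold. The retained-intron transcript of Mif (ENSMUST00000218267) had 36, 30, 42 and 62 counts in the vehicle libraries and 11, 8, 24 and 18 in the KU55933 libraries, 2.41-fold lower as CPM. The spliced and the intron-retaining form of Mif thus stood in nearly the same proportion in both groups. The Mif pseudogene Mif-ps4, which shares sequence with Mif, was assigned 26 counts in vehicle and 4 in KU55933 in all. Pigyl likewise kept to 1 transcript, with 98.6% of its counts in vehicle and 98.8% in KU55933.

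Znrd2 was the exception. Its main coding transcript (ENSMUST00000025885) had 319, 281, 384 and 311 counts in vehicle and 49, 17, 46 and 53 in KU55933, and its mean fell 6.69-fold, from 7.75 ± 1.11 to 1.16 ± 0.467 CPM (SD, n = 4). The share of that transcript in the gene's summed counts was 83.8% in vehicle and 55.4% in KU55933. The retained-intron transcripts of Znrd2 differed little, 1.05-fold (ENSMUST00000159008) and 1.23-fold (ENSMUST00000160141), on sums of 44 and 39 counts in vehicle and 36 and 27 in KU55933, so that their shares were 2.85% and 2.52% in vehicle and 12.1% and 9.06% in KU55933. Another coding transcript of Znrd2 (ENSMUST00000159693) was 2.07-fold lower, on 158 and 66 counts. It had 5, 13, 19 and 29 counts in KU55933 libraries 1 to 4. These shares pool the libraries of a group, and KU55933 library 1 lay nearest to vehicle in the share of the main transcript. The split of reads among overlapping transcripts is an estimate, and these counts are small. The folds of single transcripts carry no GC or length correction. GC content was 60.8% in the main transcript, 55.4% in ENSMUST00000159008 and 60.9% in ENSMUST00000160141. Fbll1 has a single exon and 1 transcript in the table, with 4166 counts in vehicle and 1050 in KU55933. Prr7 and C1qtnf4 also had 1 transcript each. That of Prr7 had 354, 335, 1167 and 1366 counts in vehicle against 35, 35, 60 and 29 in KU55933, and that of C1qtnf4 had 912, 657, 2703 and 2803 against 72, 53, 169 and 106.

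Compared between genes per length, as TPM, a share of all transcripts computed from the counts and the annotated lengths, Mif had the highest mean level in both groups, 245 ± 18.1 TPM in vehicle and 94.0 ± 12.4 in KU55933 (SD, n = 4). C1qtnf4 came next in vehicle, at 79.9 ± 53.6 TPM, but its libraries ran from 29.8 to 129 TPM and overlapped those of Pigyl (42.8 to 56.5), Fbll1 (33.7 to 47.7), Znrd2 (27.4 to 38.9) and Prr7 (13.7 to 59.5). Those 5 genes cannot be ranked beyond their spread in vehicle, apart from Pigyl, whose libraries all lay above those of Znrd2. In KU55933 Pigyl (16.5 ± 2.22 TPM) stood above Fbll1 (11.9 ± 2.26), Znrd2 (7.27 ± 2.06), C1qtnf4 (5.22 ± 2.43) and Prr7 (1.99 ± 0.612). The lowest Pigyl library there, at 14.7 TPM, was above the highest Fbll1 library, at 14.0 TPM, and neighbours in this order overlapped only in Znrd2 and C1qtnf4.

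Related genes were taken next. Ddt encodes D-dopachrome tautomerase, the close homologue of MIF. It measured 15.8 ± 1.22 CPM in vehicle and 12.3 ± 2.27 in KU55933 (SD, n = 4), a log2 change of -0.36 (SE 0.13) that did not pass (edgeR adjusted p = 0.0756), and with the offset it was -0.16 (edgeR adjusted p = 0.49). Fbl, which encodes fibrillarin itself, fell from 25.6 ± 0.577 to 19.6 ± 3.29 CPM, a log2 change of -0.38 (SE 0.11, edgeR adjusted p = 0.0365). That call ended without any 1 of vehicle libraries 2, 3 and 4 or KU55933 libraries 2 and 3, and with the offset the change was -0.03 (edgeR adjusted p = 0.888). Pyurf, named for the reading frame upstream of Pigy, is no homologue of Pigyl, but its human counterpart shares a transcript with PIGY. It measured 14.6 ± 0.898 CPM in vehicle and 16.1 ± 0.454 in KU55933, a log2 change of 0.14 (edgeR adjusted p = 0.232) without and -0.06 (0.768) with the offset. The transcripts of these 3 genes had a GC content of 55.1% in Ddt, 56.4% in Fbl and 42.5% in Pyurf, below each of the members.

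**Figure D4:**
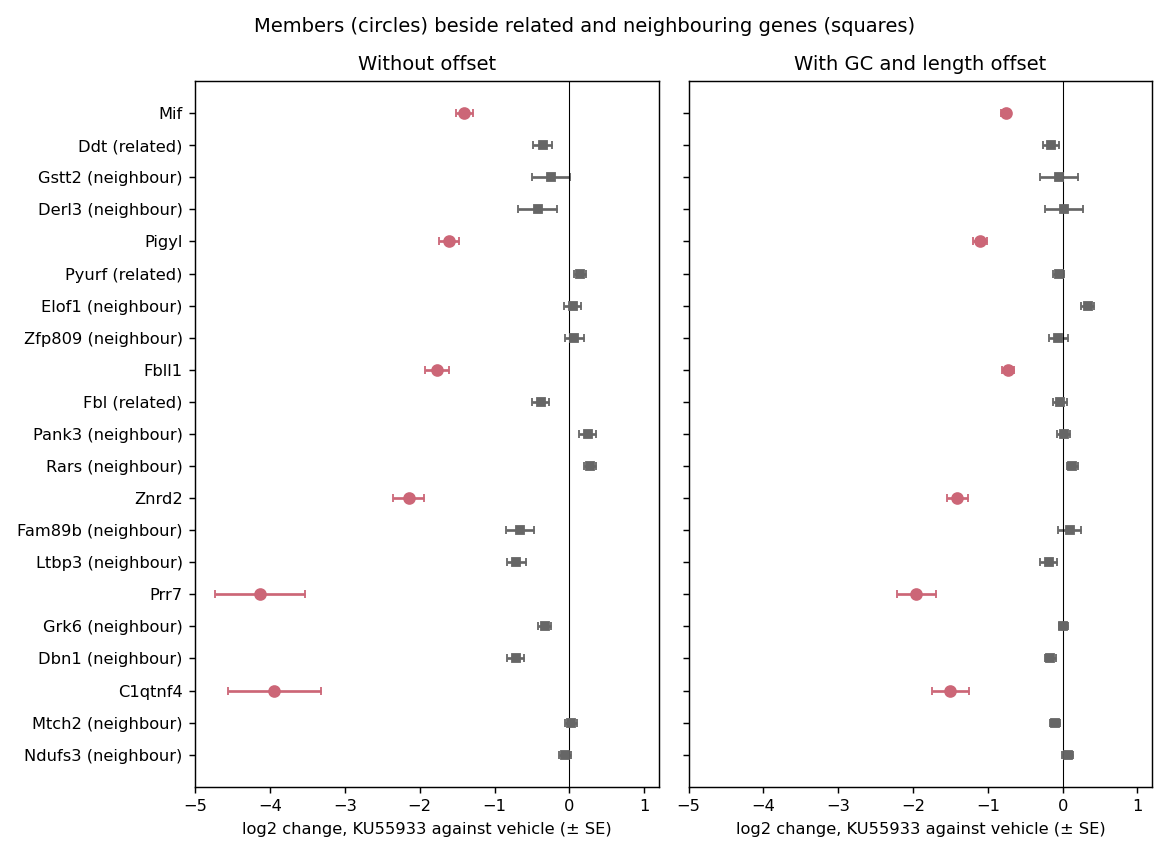
Fitted log2 change, KU55933 minus vehicle, with a standard error derived from the test statistic, for each gene beside its related and neighbouring genes, without and with the GC and length offset. The 6 genes lie between -4.13 and -1.40 without and between -1.96 and -0.73 with the offset, and the other genes lie nearer to 0.

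Genes that act with the members were counted in 6 lists. The shares called lower over all tested genes, 14.6% without and 1.29% with the offset, are the background for these counts. Of the 6 tested genes of MIF signalling (Ddt, Cd74, Cd44, Cxcr4, Ackr3 and Cops5), 0 passed in either direction by edgeR in either fit, and 2 had an unadjusted p under 0.05 without the offset and 0 with it. DESeq2, run without the offset, called 1 of them lower. With KU55933 library 4 left out, edgeR without the offset also called 1 lower. The median log2 change of that list was 0.09 without and 0.05 with the offset. The MIF receptor chain Cd74 stood at -0.18 without and 0.17 with the offset, and its signalling partner Cd44 at 0.24 and 0.06.

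Of 29 tested genes of GPI anchor synthesis and remodelling, 5 fell, 2 rose and 22 did not pass without the offset (median -0.07), and 1 fell and 0 rose with it (median 0.00). The 1 gene was Dpm3, which anchors the enzyme that supplies dolichol-linked mannose to the pathway. Dpm3 fell from 7.21 ± 0.461 to 1.94 ± 0.630 CPM (SD, n = 4), with a log2 change of -1.89 (SE 0.22, edgeR adjusted p = 0.000572) without and -1.47 (SE 0.18, edgeR adjusted p = 0.00384) with the offset. Like the members, its transcript was short and GC-rich, at 418 bases and 58.4%. With vehicle libraries 3 and 4 left out together its edgeR adjusted p with the offset was 0.0602. Without vehicle library 1, 3 genes of the list fell and 0 rose with the offset, and with the replicate number as a block 3 fell and 1 rose. Among the subunits of the GPI transamidase, which joins the anchor to proteins, Pigt (log2 change -0.50, edgeR adjusted p = 0.00158), Gpaa1 (-0.74, 0.00184) and Pigs (-0.39, 0.00426) fell without the offset. With the offset their log2 changes were 0.15, -0.07 and -0.09, and the sign of Pigt turned. The remaining calls were those of Pigo (-0.41), Pgap1 (0.52) and Pigg (0.34), named after their values were seen, and each ended without any 1 of vehicle libraries 2, 3 and 4 or KU55933 library 2, that of Pigg also without KU55933 library 1.

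Of 12 genes of the box C/D ribonucleoprotein and its assembly, 3 fell and 9 did not pass without the offset (median -0.01), and 0 passed with it by edgeR (median -0.05), where 2 had an unadjusted p under 0.05. Those that fell were Fbl, the assembly ATPase Ruvbl2 (22.7 to 14.0 CPM, log2 change -0.70, edgeR adjusted p = 0.00488) and the assembly factor Pih1d1 (-0.54, 0.0137). With the offset Ruvbl2 stood at -0.31 and Pih1d1 at -0.07. The core proteins other than fibrillarin, Nop56 (-0.01), Nop58 (0.11) and Snu13 (0.11), did not pass.

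Of 6 genes of tankyrases and their partners, 2 fell and 4 did not pass without the offset (median -0.01), and 0 passed with it by edgeR (median 0.01), where 1 had an unadjusted p under 0.05. Tnks1bp1, a tankyrase-binding protein gene, fell from 154 to 108 CPM (log2 change -0.52, edgeR adjusted p = 0.0027), and Axin2, of the Wnt pathway, fell from 27.3 to 19.3 CPM (-0.50, 0.0075). With the offset they stood at 0.09 and -0.30, the first with its sign turned. The tankyrase genes themselves, Tnks (0.19) and Tnks2 (0.22), did not pass. Without KU55933 library 4, the list had 2 genes that rose and 2 that fell without the offset.

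Of 8 partners of Prr7, 4 fell and 4 did not pass without the offset (median -0.22), and 0 passed with it by edgeR (median -0.07), where 2 had an unadjusted p under 0.05. Grin1, the obligatory NMDA receptor subunit, fell from 520 to 342 CPM (log2 change -0.60, edgeR adjusted p = 0.00149). Jun, an immediate early transcription factor whose product binds PRR7, fell from 98.5 to 56.7 CPM (-0.80, 0.00228), and with the offset it stood at -0.55 (SE 0.13, edgeR adjusted p = 0.0604). Dlg4, which encodes PSD-95, fell from 860 to 655 CPM (-0.39, 0.00611), and the kinase gene Src from 154 to 116 CPM (-0.40, 0.00915). With the offset Grin1 stood at -0.04, Dlg4 at 0.02 and Src at 0.17.

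Of 14 tested C1q and TNF related genes besides C1qtnf4, 5 fell and 9 did not pass without the offset, and 0 passed with it by edgeR, where 5 had an unadjusted p under 0.05. The median of the list turned sign, from -0.28 to 0.27. C1ql2, a secreted synaptic organiser of dentate granule cells, fell from 80.6 ± 22.6 to 27.2 ± 2.46 CPM (SD, n = 4; log2 change -1.57, edgeR adjusted p = 0.000669), and stood at -0.43 with the offset (edgeR adjusted p = 0.226). C1qtnf12 (-0.79, edgeR adjusted p = 0.00634) and C1ql1 (-0.77, 0.0126) also fell. With the offset C1qtnf12 stood at -0.37, while C1ql1 stood at 0.67. The calls of C1qtnf6 (-0.61, 0.031) and, named after its values were seen, C1qtnf5 (-0.40, 0.0394) ended without any 1 of vehicle libraries 2, 3 and 4 or KU55933 libraries 1 and 2, that of C1qtnf5 also without KU55933 library 3. C1qtnf5 stood at 0.43 with the offset.

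The nearest tested protein-coding gene on each side of each member was taken from the RefSeq gene table, 12 in all. Genes in between that were untested or not protein-coding were skipped. The 12 genes had log2 changes of -0.72 to 0.27 without the offset. With the offset the smallest edgeR adjusted p among them was 0.101 (Elof1, log2 change 0.33). Beside Mif, Gstt2 had a log2 change of -0.24 and Derl3 of -0.42 without the offset, and neither passed. Elof1 (0.05) and Zfp809 (0.07) lay beside Pigyl, and Mtch2 (0.02) and Ndufs3 (-0.06) beside C1qtnf4, none passing. Fam89b, beside Znrd2, had the same GC content as Znrd2 at 60.5%. It fell from 8.81 to 5.59 CPM without the offset (log2 change -0.66, edgeR adjusted p = 0.0304), a call that ended without any 1 of vehicle libraries 2, 3 and 4 or KU55933 libraries 1 and 3, and stood at 0.09 with it. Ltbp3, also beside Znrd2 (-0.71, edgeR adjusted p = 0.00377), and Dbn1, the drebrin gene beside Prr7 (-0.72, 0.00187), fell without the offset and stood at -0.19 and -0.16 with it. Grk6, on the other side of Prr7, had a log2 change of -0.33, and Rars, beside Fbll1, of 0.27, and the calls of both without the offset ended when single libraries were left out. Pank3, beside Fbll1, stood at 0.25 and did not pass.

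The members tracked one another closely over the 8 libraries. On the corrected scale Pearson's r between pairs ran from 0.868 (Mif and C1qtnf4) to 0.994 (Fbll1 and Znrd2). All points share the same 8 libraries and the difference between the groups, which the members were chosen for, so these values describe the likeness of patterns only. Among all tested genes, those with the pattern most like Mif were Pigyl (r = 0.984), Hopx (0.982) and Mkrn3 (0.980). Those most like Pigyl were Gm9797 (0.992), Bola1 (0.989) and Mex3b (0.988), and those most like Fbll1 were Znrd2 (0.994), Rps4l (0.994) and Usp10 (0.992). After Fbll1, Znrd2 was most like Cox6a2 (0.993) and Ccdc124 (0.992). Prr7 was most like Rpl10a, Bola1 and Gm13889 (each 0.983), and C1qtnf4 most like the histone gene H4c8 (0.986), Grcc10 (0.984) and Psmg2 (0.980). Pearson's r takes no account of the size of a change. With the offset, the log2 changes of the genes named here ran from -9.30 in Gm9797 to -0.14 in Psmg2. H4c8 stood at -3.24, Hopx at -0.44 and Usp10 at -0.28. These names depend on the correction. Without it, the 3 most like genes shared 1 gene with those named here for Prr7 and 0 for each of the other 5 members, and the r of C1qtnf4 and Psmg2 was 0.668.

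RefSeq promoter windows on GRCm38.p6, 250 bases before to 50 after the start of the gene, were found for 4 members, Mif, Fbll1, Znrd2 and Prr7. Those of Mif and Prr7 are printed 5′ to 3′ because they show how unlike the members' promoters are, with GC boxes in capitals.
Mif, chr10:75860228-75860527, minus strand: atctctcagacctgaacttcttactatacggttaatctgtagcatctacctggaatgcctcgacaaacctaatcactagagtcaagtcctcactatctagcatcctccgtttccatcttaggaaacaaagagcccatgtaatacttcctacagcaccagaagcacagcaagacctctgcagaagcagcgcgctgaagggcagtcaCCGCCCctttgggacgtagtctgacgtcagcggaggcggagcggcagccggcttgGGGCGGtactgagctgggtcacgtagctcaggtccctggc
Prr7, chr13:55464017-55464316, plus strand: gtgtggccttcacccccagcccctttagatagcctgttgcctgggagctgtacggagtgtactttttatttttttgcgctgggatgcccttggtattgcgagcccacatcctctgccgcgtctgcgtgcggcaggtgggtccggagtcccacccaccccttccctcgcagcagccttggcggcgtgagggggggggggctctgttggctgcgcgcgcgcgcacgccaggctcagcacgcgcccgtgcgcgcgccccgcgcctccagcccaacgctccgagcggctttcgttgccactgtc
The Mif window had a GC content of 54.0%, 14 CpG dinucleotides, 2 GC boxes and 1 cAMP response element in its full form. That of Prr7 had 67.7%, 29 CpG and no GC box. Fbll1 had 45.0% and 8 CpG, and Znrd2 58.3%, 15 CpG and 1 GC box. Over all 32851 windows the median was 52.7% and 7 CpG. Motifs were searched on both strands. The GC box GGGCGG was in 35.7% of all windows and in those of Mif and Znrd2, the cAMP response element TGACGTCA in 1.79% and in that of Mif, and CCAAT in 37.4% and in that of Fbll1. TATAAA, in 13.6% of all windows, and the E-box CACGTG, in 7.15%, were in 0 of the 4. No 1 of these motifs was in all 4 windows. CACGTG and TGACGTCA can overlap other motifs only in part, and a match is a description of the letters.

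Library totals and the mitochondrial share also separated the groups, while the summed markers below overlapped between them. Totals ran from 40586998 to 46630341 estimated counts in vehicle and from 34190440 to 37499003 in KU55933, and mitochondrial mRNAs took 4.36% to 4.77% of counts in vehicle and 5.08% to 5.48% in KU55933. Single markers are counted below as called in the fit without the offset. In that fit 14.6% of all tested genes were called lower and 6.92% higher, and marker calls with the offset are not given. Summed markers of hippocampal principal neurons were present in all libraries, at 1206 to 1360 CPM in vehicle and 1031 to 1225 CPM in KU55933, with 1 of 8 markers higher and 3 lower. Microglial markers, from cells that also express Mif partners such as Cd74, ran from 355 to 409 CPM in vehicle and 305 to 382 in KU55933, with 3 of 9 lower. Markers of subcortical neurons ran from 63.9 to 72.3 CPM in vehicle and 69.8 to 107 in KU55933, with 2 of 6 higher. Choroid plexus markers stood at 1202 and 1269 CPM in KU55933 libraries 1 and 2 and at 56.2 to 118 CPM in the others, with 1 of 10 higher. Astrocyte markers ran from 2026 to 2351 CPM in vehicle and 1857 to 2413 in KU55933, with 1 of 6 lower. Oligodendrocyte markers varied widely within vehicle, from 3466 to 7852 CPM, against 4141 to 5622 in KU55933, with 0 of 6 called. Endothelial markers ran from 214 to 229 CPM in vehicle and 197 to 241 in KU55933, with 1 of 6 lower. No marker of these lists was at 0 in all libraries. With KU55933 libraries 1 and 2 left out together, the members' median log2 change with the offset was -1.08. In bulk tissue, fewer cells of a type and less RNA per cell cannot be told apart. The part of depth, mitochondrial share and cell makeup in the members' differences was not tested.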

How the data were processed

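Poly(A)-selected, stranded libraries (TruSeq Stranded mRNA) of 8 hippocampus samples were grouped by their labels, 4 KU55933 and 4 vehicle. The labels name them as separate samples of a group, and p-values measure the spread between these samples, part of which may be technical. The authors deposited estimated counts (expected counts) per transcript as whole numbers, made with Salmon 1.4.0. Per the submitters' processing notes, FastQC 0.11.9, DESeq2 1.32.0 and build GRCm39 were also used. Normalization and rounding steps are not given in the sources used here, and the column totals of 34190440 to 46630341 differ as in values that were not normalized. Libraries were compared for duplicates and none were found.

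Transcript counts were summed per gene, single transcripts were kept for the members, and genes were filtered with filterByExpr and scaled by TMM. The groups were compared over 15481 genes in R 4.3.3 with limma 3.58.1 and edgeR 4.0.16, by the robust quasi-likelihood test (two-sided) with Benjamini-Hochberg adjustment at 0.05. A second fit had as offset a spline per library on GC content and log2 length, of 6 and 5 degrees of freedom. GC content and length came from GENCODE mouse release M21 transcripts, whose build differs from the authors'. Its coordinates served only to place the coding sequence within each transcript and to count exons. The coding window of Fbll1 is not reported here. RefSeq tables (GRCm38.p6) gave promoters and neighbours. Log2 CPM used a prior count of 2. On simulated counts with 200 genes changed 2-fold, 94.0% were recovered without the offset and 93.5% with it, with 10 false calls each among 15350 genes. The simulated libraries carried no trend with GC content or length. They therefore cannot show how either fit performs where that trend differs between groups, as it did here.

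The members and lists were chosen with earlier results of these data known. Genes named were the members, 3 genes most like each, their homologues and neighbours, and from each list up to 4 called genes with the smallest adjusted p. Core list members named with values that did not pass, and genes said to be named after their values were seen, fall outside that rule. Alternatives were RLE and upper-quartile scaling, DESeq2 1.42.0, other filters, a prior count of 0.5, dispersion that was not robust, the most abundant transcript alone, other splines, a replicate block, and libraries left out. The prior count of 0.5 and the most abundant transcript alone did not enter the alternative fitted log2 changes of the members. Their outcomes are not given. Tables and plots used pandas 2.3.3, NumPy 2.4.6 and matplotlib 3.10.9 under Python 3.11.15.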

Additional observations from a re-analysis of the deposited data

How the results depend on the processing

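The members, whose direction their selection fixed, were lower in KU55933 in the 108 alternative values without and the 114 with the offset. Over all genes, 3338 were called without the offset and 304 with it. Without the offset, leaving out each library in turn gave 1597 to 4348 called genes, fewest without vehicle 3, with 1809 without vehicle 2, 1737 without vehicle 4 and 2004 without KU55933 2, and leaving out vehicle 3 and 4 together gave 606, KU55933 1 and 2 together 1090, or vehicle 1 and 2 together 2270. With the offset, single libraries left out gave 81 (without KU55933 2) to 712 (without vehicle 1), with 150, 82 and 88 without vehicle 2, 3 and 4 and 194, 125 and 200 without KU55933 1, 3 and 4. The same pairs left out gave 17, 32 and 345, and the members' median log2 change without KU55933 1 and 2 was -1.08. The replicate block gave 4444 called genes without the offset and 790 with it. Samples of the same number deviated together weakly (r = 0.29, 0.08, 0.04 and 0.20 for numbers 1 to 4). Whether they share more than a number was not tested. The cause of these shifts was not tested. Without vehicle 3 and 4, the genes called without the offset were 3 of the GPI list, 1 of the box C/D list, 0 of the tankyrase list, 2 of the Prr7 partners and 1 of the C1q and TNF related list, all lower. Depth limits Prr7 most, at 29 to 60 counts per KU55933 library.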
